A study of Rattus norvegicus with 24 samples.

Results

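Hair keratins and keratin-associated proteins are the structural proteins from which the hair shaft and the sheath around it are built. The genes were chosen by name from a table of 23095 rat genes: every row named Krtap, the hair keratins of type I (Krt31, Krt32, Krt33a, Krt33b, Krt34, Krt35, Krt36) and type II (Kb23 and Krt81 to Krt86), the inner root sheath keratins (Krt25, Krt27, Krt28 and Krt71 to Krt73) and Krt75, with at least 10 counts summed over all libraries. Of 52 rows with such names, 49 reached that minimum, and they comprised 7 type I hair keratins, 7 type II hair keratins, 6 inner root sheath keratins, Krt75 and 28 keratin-associated proteins. The dorsal skin of Sprague-Dawley rats was sampled 7 days after an injection, and bulk mRNA was sequenced from 24 samples in 4 groups of 6. ID saline and ID gel received saline or T-gel, a biodegradable polymer, into the dermis, and SC saline and SC gel received the same below the skin. The study asked how the response to T-gel depends on the site. The libraries held 14024353 to 18821730 counts. No label ties a replicate to an animal of its own, so p-values measure only the spread between these samples.

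A growing hair is made by a matrix of dividing cells at the base of the follicle. Its descendants sort into concentric layers: the shaft in the centre, the inner root sheath that moulds it, and the companion layer that lies between the inner and outer root sheaths. Type I and type II keratins pair to form intermediate filaments, and in the shaft the keratin-associated proteins fill the space between the filaments and cross-link them, largely through disulfide bonds. The genes start in a known sequence, with Krt35 and Krt85 in the matrix and lower shaft, other shaft keratins above them and most keratin-associated proteins later still. These genes are active while a hair grows and fall silent when the follicle rests. In bulk skin, fewer cells of a type and less RNA per cell cannot be told apart.

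The members lie in a few gene clusters. The file places 26 on chromosome 10 (84267399 to 85039959), 11 on chromosome 7 (132548141 to 132936280), 11 on chromosome 11 (27932785 to 28810892) and Krtap28-10 on chromosome 9. A promoter was found by symbol or gene ID for 35 of the 49 in the RefSeq table of build GRCr8, which covers 250 bases before to 50 bases after each start. The sequence below gives the 100 bases before the start, 5′ to 3′ on the gene's strand, for 7 genes on which the results turn, with capitals marking TATAAA, the letters of the core of a TATA box. In Krt35 these letters begin at position -85 from the start, outside the stretch of 20 to 50 bases before the start that is counted below. The genes are Krt71 and Krt25 of the inner root sheath, Krt75 of the companion layer, Krt85 and Krt35 of the early shaft, and a pair of keratin-associated proteins.
Krt71 (chr7:134761034-134761133, minus strand): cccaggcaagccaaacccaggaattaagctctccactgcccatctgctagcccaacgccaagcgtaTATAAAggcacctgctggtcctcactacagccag
Krt25 (chr10:84771198-84771297, minus strand): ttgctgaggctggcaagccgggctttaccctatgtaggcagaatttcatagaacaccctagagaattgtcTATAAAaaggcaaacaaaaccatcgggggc
Krt75 (chr7:134576075-134576174, minus strand): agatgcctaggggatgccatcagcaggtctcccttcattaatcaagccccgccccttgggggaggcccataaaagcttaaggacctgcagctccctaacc
Krt85 (chr7:134515787-134515886, minus strand): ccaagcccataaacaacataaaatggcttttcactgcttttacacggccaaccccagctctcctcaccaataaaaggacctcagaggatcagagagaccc
Krt35 (chr10:85529969-85530068, minus strand): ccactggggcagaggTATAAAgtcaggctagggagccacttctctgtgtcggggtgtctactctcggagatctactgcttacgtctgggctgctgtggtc
Krtap7-1 (chr11:42227231-42227330, minus strand): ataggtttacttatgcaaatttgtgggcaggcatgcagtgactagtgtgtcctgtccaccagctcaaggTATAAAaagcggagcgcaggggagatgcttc
Krtap11-1 (chr11:42297152-42297251, minus strand): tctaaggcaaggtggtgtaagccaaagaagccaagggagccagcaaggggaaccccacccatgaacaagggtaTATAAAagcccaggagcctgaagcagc

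The letters TATAAA stood on either strand of the 300-base window in 26 of the 35 members (74.3%), against 14.3% of all 27457 promoters in that table. On the gene's strand and 20 to 50 bases before the start they stood in 14 members (40%), against 2.1% of all promoters. By class, either strand held them in 6 of 6 inner root sheath keratins, 5 of 6 type I hair keratins, 14 of 18 keratin-associated proteins and 1 of 4 type II hair keratins, and not in Krt75. CTTTGA, the letters of a LEF1 motif on the gene's or the opposite strand, stood in 13 members (37.1%) against 15.9% of all promoters. TTTACGA, part of the motif described for HOXC13, stood in 2 members (5.71%) against 0.626%. These shares describe letters only, and members of a cluster are related in sequence.

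In saline skin the inner root sheath keratins were the most abundant members per length. Levels between genes are given in FPKM, the deposited counts scaled to gene length and library total. Krt25 had 372 ± 170 FPKM and Krt71, its type II partner in all layers of the sheath, 364 ± 163 FPKM in ID saline (mean ± SD, n = 6), and in SC saline they had 265 ± 148 and 258 ± 157 FPKM. Krt27, another type I keratin of the sheath, followed with 173 ± 80.1 FPKM in ID saline and 127 ± 72.4 FPKM in SC saline. The SDs of Krt25, Krt71 and Krt27 exceeded the gaps between Krt25 and Krt71, so these 2 neighbours in the order did not differ beyond their spread.

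Among shaft genes the highest levels were those of Krtap8-1, a small glycine- and tyrosine-rich protein (97.3 ± 120 FPKM in ID saline and 101 ± 160 in SC saline), and of Krt85 (61.4 ± 34.5 and 50.1 ± 42.7 FPKM). Krt75, the companion layer keratin, stood at 43.7 ± 18.7 FPKM in ID saline and 38.4 ± 21.8 FPKM in SC saline. For Krtap8-1 the SD was larger than the mean at both sites, because the saline libraries themselves were far apart.

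**Figure D1:**
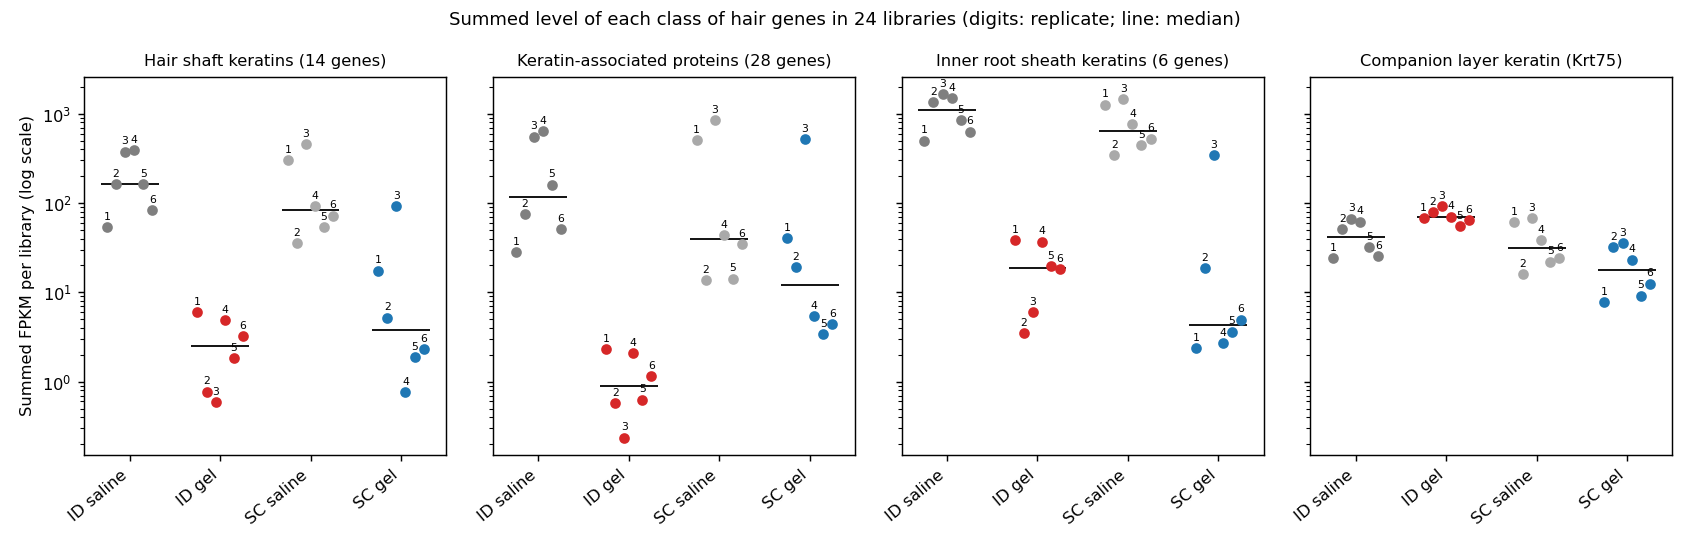
Summed FPKM of each class of hair genes in each of the 24 libraries, on a log scale, with the replicate number above each point and a line at the group's median. Within a saline group the libraries span 2.77-fold (Krt75, ID saline) to 61.6-fold (keratin-associated proteins, SC saline), and SC gel 3 stands above the other SC gel libraries in every class.

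The saline libraries differed from each other in a graded way along the layers of the hair. The summed FPKM of the inner root sheath keratins was 500, 1101 and 1649 (lowest, median and highest) in ID saline and 344, 648 and 1471 in SC saline. The shaft keratins of both types summed to 54, 163 and 394 FPKM in ID saline and to 35.8, 82.6 and 455 FPKM in SC saline. The keratin-associated proteins summed to 28.4, 118 and 639 FPKM in ID saline and to 13.8, 39.4 and 851 FPKM in SC saline. The highest library thus exceeded the lowest by 3.3-fold (ID saline) and 4.28-fold (SC saline) for the inner root sheath, by 7.29-fold and 12.7-fold for shaft keratins, and by 22.5-fold and 61.6-fold for keratin-associated proteins.

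The same libraries were high for nearly every gene. ID saline 3 and ID saline 4 were the top pair in 39 of the 44 members with at least 10 counts in an ID saline library, and SC saline 1 and SC saline 3 in 46 of 46. In these 4 libraries the keratin-associated proteins had 1.48 to 1.87 times the summed FPKM of the shaft keratins, and in the other 8 saline libraries 0.265 to 0.982 times. The inner root sheath keratins had 3.24 to 4.39 times the shaft keratins in those 4 and 5.17 to 9.59 times in the others. Single genes of the shaft classes also ranged more widely than those of the inner root sheath. In ID saline, however, the keratin-associated proteins did not range more widely than the type II hair keratins. Across ID saline, the median ratio of the highest to the lowest library was 3.09 over the inner root sheath keratins, 10.8 over type I and 14.6 over type II hair keratins, and 13.1 over the keratin-associated proteins with at least 10 counts in a library. In SC saline these medians were 3.26, 18.8, 23 and 29.1. Members without a count in the lowest library have no such ratio and are left out of these medians.

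Krt85 and Krtap8-1 show the range. Krt85 had 38, 130, 203, 186, 109 and 64.5 CPM in ID saline 1 to 6, where CPM are counts scaled to a common library total with TMM factors, and 168, 36.5, 219, 75.1, 39 and 51.8 CPM in SC saline 1 to 6. Krtap8-1 had 0.589, 2.86, 45.5, 44, 10.1 and 2.1 CPM in the same ID saline libraries and 35.8, 0.331, 65.8, 1.39, 0.244 and 1.86 CPM in SC saline. In SC saline the top library exceeded the lowest by 270-fold for Krtap8-1, whereas for Krt25 of the inner root sheath it did so by 3.2-fold.

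Between the saline groups no member was called. A gene was called when edgeR's quasi-likelihood test gave a p under 0.05 after Benjamini-Hochberg adjustment over all 14763 tested genes, and 40 of the 49 members passed the low-count filter and were tested. For ID saline against SC saline 3.22% of all tested genes were called, 1.54% lower and 1.67% higher. Of the 40 members, 0 were called and 0 had an unadjusted p under 0.05, the smallest adjusted p was 0.324, and the count was also 0 with DESeq2, with limma voom and with limma on FPKM. The groups overlapped in every member, whereas 1.53% of all tested genes lay wholly lower and 2.01% wholly higher in ID saline. The median log2 fold change of the members was 0.30, against 0.01 over all tested genes. With libraries this far apart within a group, a p above the threshold does not show that the sites were alike.

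After gel in the dermis nearly the whole set fell. For ID gel against ID saline 38 of 40 tested members were called lower, where 37% of all tested genes were called lower. Krt75 was called higher, as were 36.6% of all genes, and Krt84 was not called. In either direction 39 members and 73.6% of all tested genes were called. All 6 ID gel libraries lay below all 6 ID saline libraries in 40 of the 49 members, tested or not, and in 37 of the 40 tested members, against 27.5% of all tested genes. The 9 untested members were all keratin-associated proteins, with 23 to 722 counts summed over the 24 libraries: Krtap13-2, Krtap14, Krtap19-5, Krtap20l3, Krtap28-10, Krtap31-1, Krtap2-1 and 2 further rows of the Krtap2-1 name. Krtap14, with the 722, had counts in 7 libraries. Since a member low in gel passes the filter only through its saline libraries, the counts over tested members are a description.

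**Figure D2:**
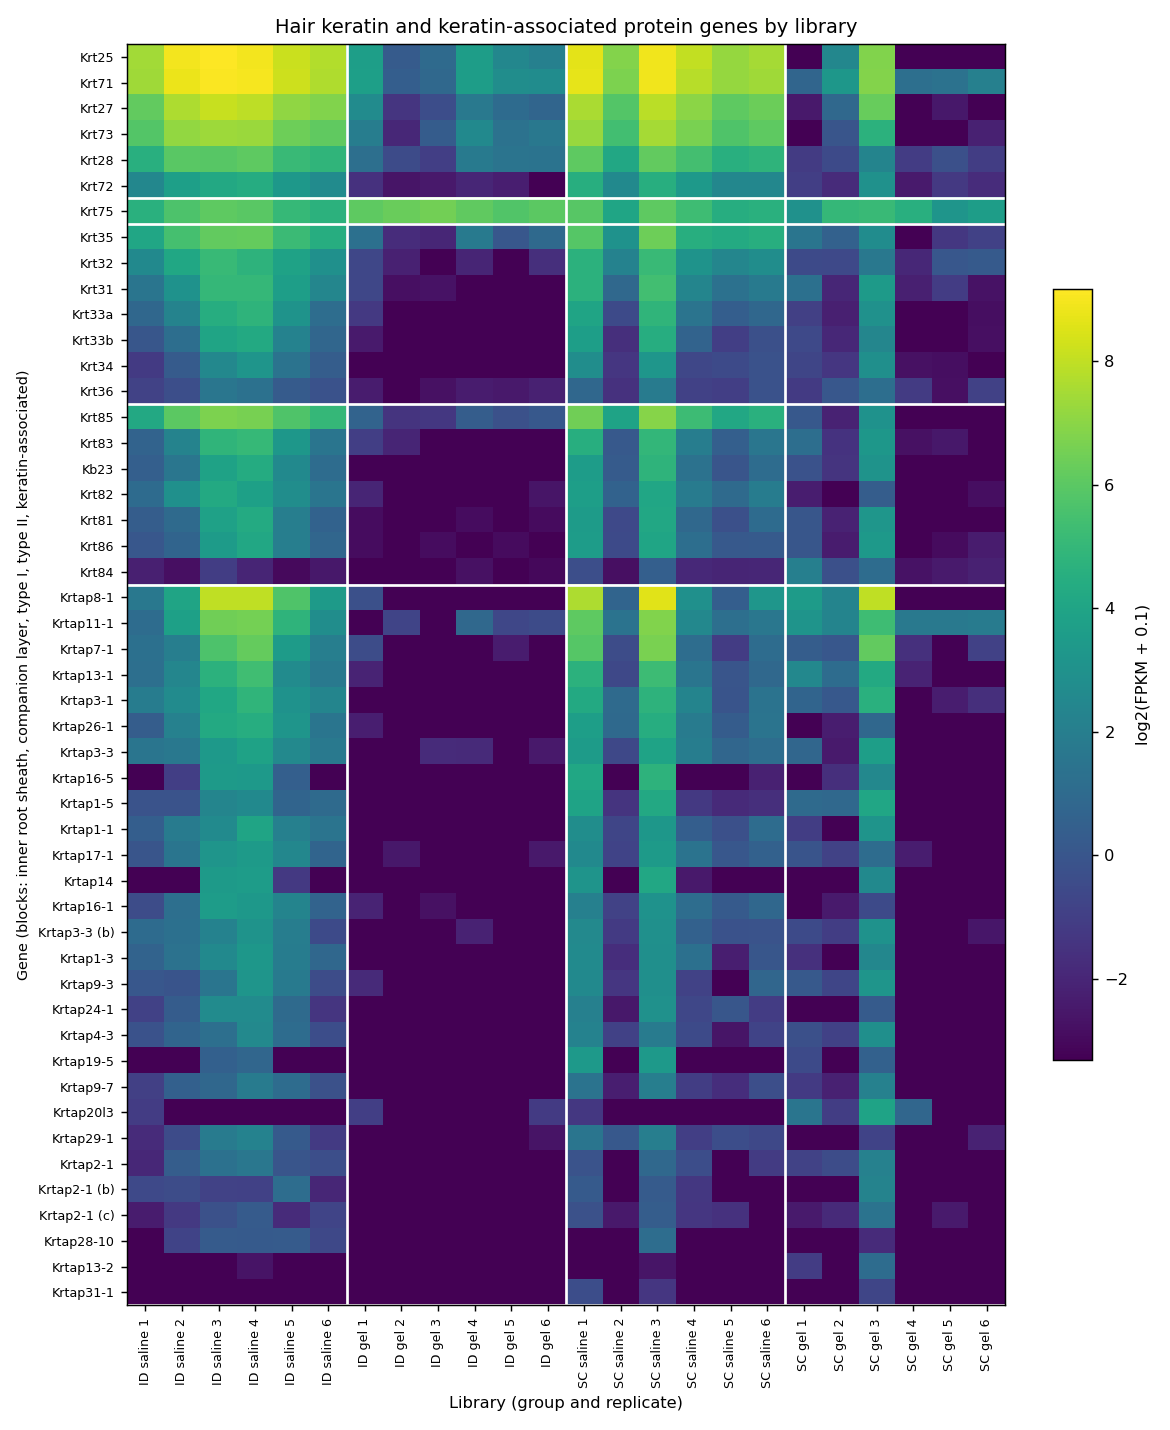
Level of each of the 49 members (rows, in blocks by class) in each of the 24 libraries (columns), as log2(FPKM + 0.1). Letters (b) and (c) mark further rows of one name. The ID gel columns are dark in all blocks except the Krt75 row, and among the SC gel columns library 3 is the brightest.

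The inner root sheath keratins fell in ID gel, 6 of 6, but stayed measurable in most libraries. Krt71 had 377, 815 and 1153 CPM (lowest, median and highest) in ID saline and 3.05, 15.7 and 30.1 CPM in ID gel. Its log2 fold change was -5.55 ± 0.96 (SE), adjusted p = 1.65e-05 in edgeR's quasi-likelihood test. Krt25 had 305, 661 and 949 CPM in ID saline and 2.18, 8.96 and 23.6 CPM in ID gel, a log2 fold change of -5.75 ± 1.35 (adjusted p = 0.000556). For both, every ID gel library lay below every ID saline library, and ID gel 1 and 4 were the highest of the gel libraries and ID gel 2 and 3 the lowest. Among the sheath keratins the change ran from -4.38 for Krt28 to -6.67 for Krt72, a type II keratin of the sheath's cuticle.

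The shaft keratins fell further in most cases. Krt85 had 0.623, 1.9 and 3.16 CPM in ID gel (lowest, median and highest) against 38 to 203 CPM in ID saline, a log2 fold change of -6.05 ± 0.93 (edgeR adjusted p = 3.32e-06). Krt35, its type I partner in the early shaft, had 0.24, 2.03 and 5.18 CPM in ID gel against 23.4, 57 and 97.7 CPM in ID saline (-4.77 ± 0.74, adjusted p = 3.54e-06). Krt32 and Krt82, keratins of the shaft cuticle, fell by 6.53 and 7.68 on the log2 scale. Krt34, a late cortex keratin, and Kb23 had no count in any ID gel library. With a floor of 3 counts over the group, Krt34 was at least 143-fold and Kb23 at least 432-fold lower than in ID saline. The smallest called fall among the members was that of Krt36 (-3.99 ± 0.84, adjusted p = 0.000186), known from nail and tongue as well as hair in human.

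All 19 tested keratin-associated proteins were called lower in ID gel. Krtap11-1, a high-sulfur protein, had 1.18, 11.8 and 48.8 CPM in ID saline and 0, 0.319 and 1.11 CPM in ID gel (-5.86 ± 1.29, adjusted p = 0.000287 by edgeR). Krtap8-1 had 2 counts in ID gel 1 and 0 in the other ID gel libraries. Of the 28 keratin-associated proteins 16 had no count in any ID gel library, and over all classes 18 of the 49 members had none. Krtap3-1, a high-sulfur protein, was at least 196-fold lower and Krtap1-1, of the same broad class, at least 125-fold lower. ID gel libraries held counts for 13 to 25 of the 49 members, and ID saline libraries for 43 to 47. The classes' medians were -5.65 for the inner root sheath, -7.07 for type I and -7.68 for type II hair keratins and -7.80 for keratin-associated proteins, and the median over tested members was -7.11, or -6.51 with genes without counts set at their bound. The median over all tested genes was -0.01.

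Below the skin the inner root sheath keratins and part of the shaft keratins fell, with a wide spread between gel libraries. For SC gel against SC saline 20 of 40 tested members were called lower and 0 higher, against 26.1% of all tested genes called lower, 24.7% higher and 50.8% in either direction. The calls took in 6 of 6 inner root sheath keratins, Krt75, 5 of 7 type I and 3 of 7 type II hair keratins and 5 of 19 tested keratin-associated proteins. The share called among the latter was thus near that of all genes. The members' median log2 fold change was -2.50, against 0.00 over all genes. In 11 members all 6 SC gel libraries lay below all 6 SC saline libraries, which held for 14% of all tested genes. These were Krt25, Krt27, Krt28, Krt71 and Krt73 of the inner root sheath, the shaft keratins Krt32, Krt35, Krt82 and Krt85, and Krtap16-1 and Krtap29-1.

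**Figure D3:**
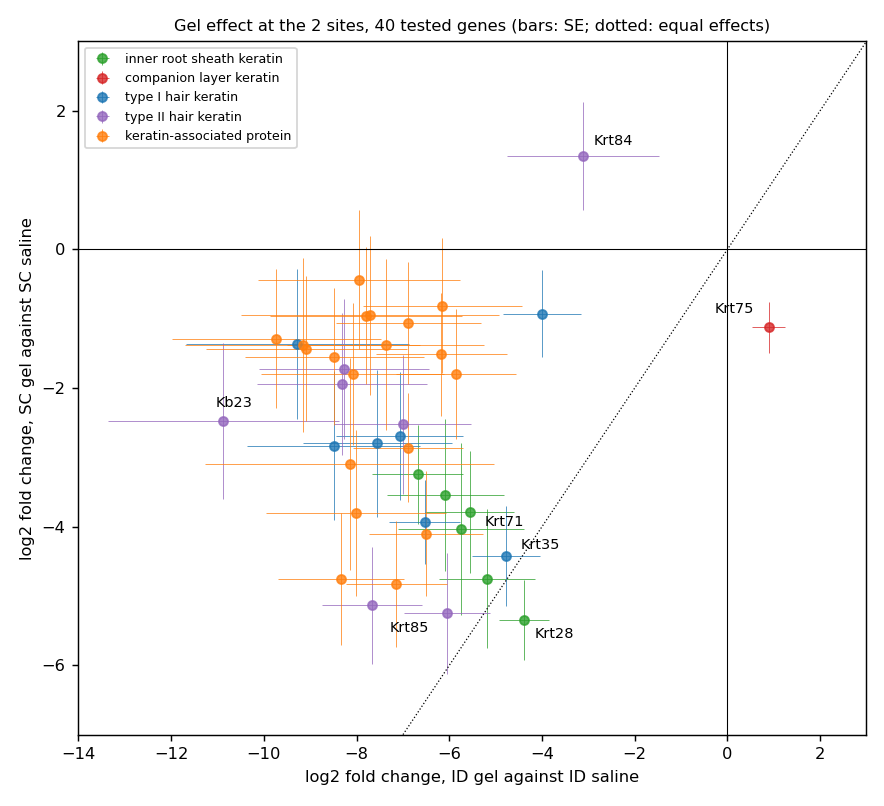
Log2 fold change of gel against saline in the dermis (x axis) and below the skin (y axis) for the 40 tested members, coloured by class, with bars of 1 SE and a dotted line where both are equal. Krt35, Krt73 and Krt85 lie near the line, the site differences of the inner root sheath keratins spread from -3.43 (Krt72, above the line) to 0.96 (Krt28, below it), most keratin-associated proteins lie well above it, and Krt75 is the one member on the right of 0.

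A single library carried most of the hair signal in SC gel. The inner root sheath keratins summed to 2.39, 18.6, 342, 2.73, 3.64 and 4.96 FPKM in SC gel 1 to 6. The shaft keratins summed to 17.6, 5.22, 92.9, 0.77, 1.89 and 2.3 FPKM, and the keratin-associated proteins to 40.6, 19, 524, 5.37, 3.39 and 4.38 FPKM in these libraries. SC gel 3 was the top SC gel library in 44 of the 45 members with at least 10 counts in one of them, and it held a median of 87.2% of a member's summed SC gel CPM.

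Within SC gel 3 the classes stood at different places relative to saline. Of the 6 inner root sheath keratins 5 lay below all SC saline libraries, as did Krt35, Krt85, Krt32 and Krt82 of the early shaft and the cuticle. The keratin-associated proteins Krtap16-1 and Krtap29-1 also lay below. Most later shaft genes lay inside the SC saline range (30 of 49 members in all, with Krt75 and Krt72 among them), and 8 lay above it: Krt84, Krtap4-3, Krtap9-3, Krtap13-2, Krtap20l3 and the 3 rows named Krtap2-1. By summed FPKM that range was 61.6-fold wide for keratin-associated proteins and 4.28-fold for the inner root sheath. A place inside it is thus easier to reach for the former. Krt85 had 13.4 CPM in SC gel 3 against 36.5 to 219 CPM in SC saline, whereas Krtap8-1 had 38 CPM against 0.244 to 65.8 CPM. The keratin-associated proteins there had 5.65 times the summed FPKM of the shaft keratins, above the saline range of 0.265 to 1.87. In the other SC gel libraries that ratio was 1.79 to 6.98, and in ID gel it was 0.346 to 0.735.

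Among the other SC gel libraries the first 2 and the last 3 also differed. SC gel 1 had 17.6 FPKM of shaft keratins with 2.39 FPKM of inner root sheath keratins, and SC gel 4 to 6 had at most 2.3 FPKM of shaft keratins. In SC gel 4, 5 and 6 together 23 of the 49 members had no count, 19 of them keratin-associated proteins, and libraries of SC gel held counts for 15 to 49 members. Krtap11-1 was an exception among keratin-associated proteins, with 4.26, 2.39, 17.5, 1.67, 1.58 and 1.66 CPM in SC gel 1 to 6 against 1.34 to 56.6 CPM in SC saline. Its lowest SC gel libraries were thus at the level of the lowest SC saline libraries.

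The calls of a site difference rested on SC gel 3. In the contrast of the ID effect minus the SC effect 21 of 40 members were called with a larger fall in the dermis, against 23% of all tested genes, and Krt75 was called the other way, against 32.8%. The 22 calls in either direction stood beside 55.8% of all genes. Without SC gel 3 the SC contrast called 38 of 40 members lower, with a median of -5.08, and the site contrast called none with a larger fall in the dermis. It then called 4 in the other direction, Krt75 and the inner root sheath keratins Krt27, Krt28 and Krt73. The lost calls do not show that the difference went: without SC gel 3 the median of the site contrast was -3.04 for keratin-associated proteins, -2.39 for type I and -3.51 for type II hair keratins, against -5.81, -4.37 and -4.48 with it. For the inner root sheath keratins it went from -1.74 to 2.25. With gel replicates 4 to 6 alone 38 of 42 tested members were called lower for SC. In the site contrast 6 were then called, none of them with a larger fall in the dermis. Its medians were then -0.43 for keratin-associated proteins, -2.24 for type I and 0.03 for type II hair keratins. Many keratin-associated proteins had no count in these libraries of either gel group. With gel replicates 1 to 3 alone these medians were -6.79, -4.38 and -7.16. The count of 22 in that contrast also fell to 12 without ID saline 4, to 13 without ID saline 3, ID gel 3 or ID gel 5, and to 11 without ID gel 2. Over all genes the site contrast had a median of 0.12, not 0. SC gel 3 was singled out because the members were highest in it, so the counts without it follow partly from that choice. The shares of all tested genes called without SC gel 3 or in the replicate subsets are not given here. These counts are therefore descriptions.

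The early shaft genes were not called in the site contrast with all libraries. The ID effect minus the SC effect was -0.35 ± 0.98 for Krt35 and -0.80 ± 1.17 for Krt85, with edgeR adjusted p of 0.777 and 0.579. Their fold changes for SC gel were -4.42 ± 0.72 and -5.25 ± 0.88 (adjusted p = 2.27e-05 and 3.24e-05). The SEs leave wide intervals, so this does not show equal effects. The site difference also depended on the libraries. With gel replicates 1 to 3 alone it was -2.01 for Krt35 and -2.12 for Krt85 (edgeR adjusted p = 0.142 and 0.183). With gel replicates 4 to 6 alone it was 2.93 for Krt35 (adjusted p = 0.0764) and a called 7.79 for Krt85 (adjusted p = 0.032). Krt85 had no count in SC gel 4, 5 and 6. For Krtap3-1 the difference was -8.45 ± 2.88 (adjusted p = 0.0182), between no count in ID gel and 0.778, 0.512, 11.7, 0, 0.0527 and 0.114 CPM in SC gel 1 to 6.

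The keratin-associated proteins were also grouped by the family that their names carry in human and mouse, a grouping made after the values were seen that leaves 6 ungrouped. The 4 high glycine-tyrosine members (Krtap7-1, Krtap8-1, Krtap19-5 and Krtap20l3) summed to 1.58, 10.5 and 498 FPKM in SC saline (lowest, median and highest) and to 0, 4.02 and 338 FPKM in SC gel. The 14 members of the high-sulfur families summed to 8.92, 22.3 and 269 FPKM in SC saline and to 3.37, 7.42 and 151 FPKM in SC gel. The 4 ultra-high-sulfur members (Krtap4-3, Krtap9-3, Krtap9-7 and Krtap17-1) summed to 1.22, 4.13 and 25.8 FPKM and to 0, 0.805 and 22.6 FPKM. In ID gel the highest library of any of these families reached 2.08 FPKM. All families overlapped between SC gel and SC saline, and none did between ID gel and ID saline.

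Krt75 went the other way from the rest in ID gel. It had 53.7, 110, 139, 127, 72.9 and 56.4 CPM in ID saline 1 to 6 and 156, 197, 232, 172, 133 and 148 CPM in ID gel 1 to 6. In SC saline 1 to 6 it had 127, 41, 135, 82.3, 51.6 and 56.4 CPM, and in SC gel 1 to 6 it had 14.7, 61.2, 62.7, 47.1, 17.7 and 23 CPM. The ID gel libraries lay above the SC gel libraries without overlap, while ID gel 5 lay within the range of ID saline.

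The log2 fold change of Krt75 was 0.89 ± 0.36 for ID gel (edgeR adjusted p = 0.0284) and -1.13 ± 0.36 for SC gel (adjusted p = 0.012), and the difference between them was 2.02 ± 0.51 (adjusted p = 0.00173). The ID call was lost without ID saline 1, 5 or 6 or ID gel 3 and with limma on FPKM. It was also lost with gel replicates 4 to 6 alone (0.69), and the SC call was lost with gel replicates 1 to 3 alone (-0.80). The call of the difference held with both subsets (2.18 and 1.87), and it and the SC call held without each library in turn. For ID gel against SC gel the log2 fold change of Krt75 was 2.20 ± 0.37 (adjusted p = 1.57e-05), a direction in which 27.5% of all tested genes had groups that did not overlap.

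In saline Krt75 kept a near constant proportion to the inner root sheath keratins. Its FPKM was 0.0377 to 0.0483 of their sum in ID saline and 0.0464 to 0.0501 in SC saline. In SC gel 3 the ratio was 0.104, and in the other 11 gel libraries it was 1.72 to 22.8. Among keratins of the epidermis the pattern was another one: of 9 measured, 9 were called lower in ID gel (median log2 fold change -1.75) and 5 higher and 0 lower in SC gel (median 1.03). Beside these stood 37% of all tested genes called lower in ID gel, and 24.7% higher and 26.1% lower in SC gel.

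**Figure D4:**
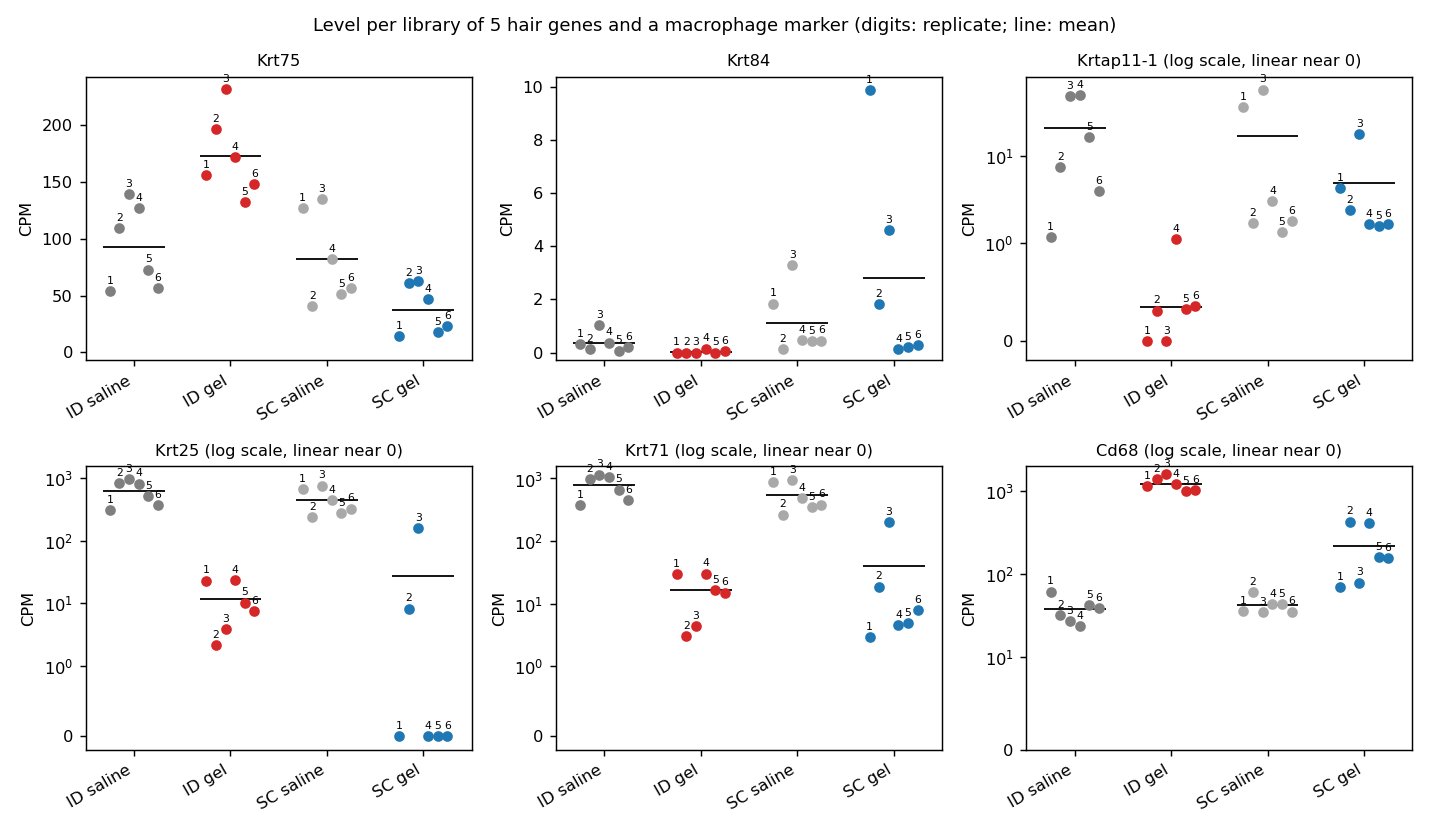
CPM of Krt75, Krt84, Krtap11-1, Krt25, Krt71 and the macrophage marker Cd68 in each library, with replicate numbers and a line at the mean. Krt75 and Krt84 are on linear axes and the others on log axes that are linear near 0. ID gel is highest for Krt75 and Cd68, and SC gel 1 is highest for Krt84.

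Macrophage markers rose in ID gel, and most of them rose in SC gel. Cd68 had 978 to 1576 CPM in ID gel, 69.3 to 424 CPM in SC gel and 23.4 to 61.4 CPM in saline. The 5 macrophage markers summed to 1667 to 2449 FPKM in ID gel, 204 to 835 FPKM in SC gel and 83.7 to 186 FPKM in saline, with none at 0. All 5 were called higher in ID gel, against 36.6% of all tested genes. For SC gel against SC saline, 3 were called higher and 1 lower, against 24.7% and 26.1% of all tested genes. Adgre1 had 14.2 to 28.3 CPM in SC gel against 26.9 to 41.6 CPM in SC saline. The part of macrophages in the fall of hair genes or in the rise of Krt75 was not tested. Skeletal muscle markers fell in both gel groups, to 3.3 to 5326 FPKM in ID gel and 3.96 to 825 FPKM in SC gel from 9994 to 22430 FPKM in saline. Among SC gel libraries the muscle enzyme Ckm was highest in SC gel 1 (119 CPM) and SC gel 3 (20.8 CPM) and at most 0.171 CPM in the other 4. Those were also the top 2 libraries of 32 of the 45 members counted above, and the part of muscle in the sample in this was not tested.

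Markers of the epidermis stood at 507 to 1891 FPKM in ID gel, 2003 to 4157 FPKM in ID saline, 5834 to 9761 FPKM in SC gel and 1935 to 2944 FPKM in SC saline. The labelled tissue, skin, was therefore present in all libraries. Sebaceous gland markers, which belong to the same follicle unit, stood at 362 to 519 FPKM in ID gel, 615 to 1241 FPKM in ID saline, 1209 to 2072 FPKM in SC gel and 420 to 927 FPKM in SC saline. Of 7 sebaceous markers 4 were called lower and 0 higher in ID gel, and 1 lower and 4 higher in SC gel. Melanocyte markers summed to 34.8 to 53.7 FPKM in ID gel and 39.8 to 56.9 FPKM in SC gel, above the 15.6 to 28 FPKM of the saline libraries. Single melanocyte markers did not all follow the sum: of 7 tested, 4 were called higher and 2 lower in ID gel, and 6 higher and 1 lower in SC gel. Of all tested genes 36.6% were called higher and 37% lower in ID gel, and 24.7% higher and 26.1% lower in SC gel.

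Krt84 had its highest level in SC gel 1, but no change was called. It had 9.86, 1.82, 4.59, 0.133, 0.211 and 0.286 CPM in SC gel 1 to 6, and 0.132, 0.455 and 3.27 CPM (lowest, median and highest) in SC saline. In ID saline it had 0.0712, 0.269 and 1.04 CPM and in ID gel at most 0.148 CPM. The SC gel libraries lay on both sides of the SC saline median. In human Krt84 is known mainly from the tongue and nail. The change was not called for ID gel (-3.12 ± 1.64, edgeR adjusted p = 0.0905) or for SC gel (1.35 ± 0.78, adjusted p = 0.155), whereas the difference between the effects was (-4.47 ± 1.80, adjusted p = 0.0385). Without SC gel 3 the difference was -4.29 (adjusted p = 0.0544). The fold change for SC gel depended on the libraries, with a called 2.31 from gel replicates 1 to 3 alone (adjusted p = 0.0138) and a called -2.34 from gel replicates 4 to 6 alone (adjusted p = 0.0478). Krtap13-2 and Krtap20l3, which were not tested, had their highest levels in SC gel 3, at 1.87 and 2.1 CPM, followed by SC gel 1 at 0.363 and 0.415 CPM, and at most 0.0654 CPM in any saline library.

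Krt25 and Krt71, partners in the same filament, parted in SC gel. Their FPKM ratio was 0.971 to 1.08 in ID saline, 0.959 to 1.17 in SC saline and 0.637 to 1.1 in ID gel. In SC gel Krt25 had no count in libraries 1, 4, 5 and 6, where Krt71 had 2.96, 4.61, 4.84 and 7.83 CPM. In SC gel 2 and 3 the ratio was 0.557 and 0.982. Krt28 had 0.415 to 5.5 CPM in SC gel. With all SC gel libraries its fall was the largest of the sheath keratins there (-5.35 ± 0.57, edgeR adjusted p = 1.17e-07). That rank rested on SC gel 3: without it the log2 fold change was -6.6 for Krt28, -8.1 for Krt25, -8.5 for Krt27 and -6.1 for Krt71. Reads of such related keratins may be shared between genes, with a rule of assignment not given in the sources used here.

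In the direct comparison of the gel groups 26 of 40 members were called lower and 1 higher in ID gel than in SC gel, against 28% lower, 40.1% higher and 68.1% in either direction of all tested genes. Of the inner root sheath keratins only Krt72 was among them (-3.39 ± 1.10, edgeR adjusted p = 0.00898). The groups did not overlap for Krtap11-1, lower in ID gel (16.4% of all genes), and Krt75, higher in ID gel (27.5%). Without SC gel 3 the count fell from 27 to 7, of which 2 were lower and 5 higher in ID gel. The share of all tested genes called in that setting is not given here.

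Other structural genes of the follicle fell together with the members. Of 12 listed genes outside the naming rule, 10 had a row, and 10 were called lower in ID gel (median log2 fold change -5.18) and 7 lower and 1 higher in SC gel (median -3.10). The shares over all tested genes were 37% lower in ID gel, and 26.1% lower and 24.7% higher in SC gel. Tchh, which encodes trichohyalin of the inner root sheath and medulla, fell by 4.59 on the log2 scale in ID gel and by 3.15 in SC gel (edgeR adjusted p = 5.18e-05 and 0.00246). Krt26, a further inner root sheath keratin, fell by 8.13 and 4.34. Tgm3, a cross-linking enzyme of hair and epidermis, was the one called higher in SC gel (2.04 ± 0.23, adjusted p = 2.29e-07), while it fell by 1.26 in ID gel.

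The listed signals and transcription factors of the hair programme had smaller median changes than its structural genes. Of 20 listed signals and transcription factors 19 were tested, and 19 were called lower in ID gel (median log2 fold change -2.50) and 12 lower and 1 higher in SC gel (median -1.27). Over all tested genes 37% were called lower in ID gel, and 26.1% lower and 24.7% higher in SC gel. Hoxc13, a transcription factor that drives hair keratin genes, fell by 4.13 ± 0.45 in ID gel and by 2.86 ± 0.40 in SC gel on the log2 scale (edgeR adjusted p = 1.77e-08 and 3.29e-06). Shh, a signal of the growing matrix, had log2 fold changes of -3.70 ± 0.43 and -5.48 ± 0.50 at these sites. Lef1, the nuclear partner of Wnt signalling there, had -3.44 ± 0.38 and -3.36 ± 0.38. Wnt10a, a Wnt ligand, was the one called higher in SC gel (0.80 ± 0.24, adjusted p = 0.00903).

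SC gel 3 stood out less in the listed signals and transcription factors than in the listed structural genes. Of the 20 signals and factors 14 were highest in SC gel 3 among the SC gel libraries, at up to 2.99 times the next library, and the median ratio over the 20 was 1.21. Of the 10 structural genes 10 were highest there, at 1.26 to 50.9 times the next library, with a median of 13.7. The difference between the lists was not tested. Shh had 0.113 CPM there and 0 to 0.514 CPM in the other SC gel libraries, against 4.57 to 10.6 CPM in SC saline. Lef1 had 3.57 CPM there and 1.82 to 3.77 CPM in the others. Msx2 and Dlx3, transcription factors of the matrix and precursors of the shaft, had 6.24 and 18.1 CPM there against 2.2 to 3.54 and 6.41 to 11.1 CPM in the others. Tchh had 144 CPM there against 2.26 to 7.68 CPM in the others. Hoxc13 was highest in SC gel 3, at 2.04 CPM, next to 0.369 to 1.14 CPM in the others and 4.63 to 11 CPM in SC saline.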

How the data were processed

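Each of the 24 skin libraries has, per the file headers, a whole-number read count and an FPKM value for every gene in the deposited table. The deposited FPKM equalled the count scaled to gene length and library total (median ratio 0.999675 to 0.999998 by library), so both units carry the same reads. The submitters' processing notes name FastQC 0.11.2, Trimmomatic 0.36, StringTie 1.3.3b, DESeq2 1.12.4 and Rnor_6.0, without saying what each was used for. Aligner, counter, strand setting and treatment of reads shared between genes: not given in the sources used here. Keratins and keratin-associated proteins have close relatives, so the values of single genes are uncertain. The build of the file's coordinates is unsure, and they are given as in the file, whereas promoters come from RefSeq for GRCr8. A single emptied line of the table is not reported here.

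Samples were grouped by their titles, 6 per group. Counts were analysed with edgeR 4.0.16, limma 3.58.1 and DESeq2 1.42.0 in R 4.3.3. The filterByExpr filter kept 14763 of 23095 genes, and a quasi-likelihood model with TMM factors took all libraries with a mean for each group, which leaves 20 residual degrees of freedom. P-values were adjusted over all tested genes at 0.05. The SE was derived from the fold change and its F statistic. A fold against a group without counts was bounded at 3 counts over the group, which covers counting error only. No 2 libraries of a group were identical, and all pairs differed by more than counting noise (chi-square per degree of freedom of at least 5.64). On simulated data for ID gel with 14763 genes the method found 52% of genes changed 1.5-fold, 78% at 2-fold and 100% at 4-fold and 8-fold, with 6 false calls. There 50 genes drawn at random from all tested genes were changed at each fold and the rest left unchanged. In the real data 73.6% were called for ID gel. The shares found thus do not give the power for the members, whose libraries were far apart within a group.

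The members, the gene lists and the rules were chosen with earlier results of these data known. Named genes were the 3 members of highest FPKM in each class, the largest called changes in each direction and members called against the rest. Genes named outside that rule (Krt84, Krt36, Krt72, Krt28 in SC gel, Krtap13-2, Krtap20l3, Krtap1-1 and those in counts) were chosen after their values were seen. A split of keratin-associated proteins by the composition of their proteins was not made, since no protein table was used here. Name and Entrez number disagree for 4 members. Other settings were DESeq2, limma voom, RLE factors, no or a stricter filter, a replicate block, limma on log2 FPKM plus 1 or 0.1, gel replicates 1 to 3 or 4 to 6 alone, exchanged saline groups and each library left out.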

Additional observations from a re-analysis of the deposited data

Results flagged for a closer look

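Single libraries stood apart from the rest of their group of 6 in 7 of 104 values examined, by the gap to the nearest library divided by the whole range against Dixon's limit. Chance flags about 1 in 20 groups. In ID gel, library 1 was above the others for Krtap8-1 (gap over range 1), Krtap7-1 (0.719) and Krt31 (0.742) on the log2 CPM scale. These flags rest on few reads, with 2, 6 and 10 counts in ID gel 1 and at most 1 in any other ID gel library. Where all others have 0 counts, as for Krtap8-1, the value is 1 for any count. In SC gel, library 3 was far above the others for Krtap7-1 (0.684), Krt28 (0.729), Krt82 (0.702) and the summed FPKM of all members (0.652).

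For 9 of the 18 named members the effect of the gel differed between the sites by edgeR's quasi-likelihood test of the difference. Of all tested genes 55.8% were called in that contrast. Some members, among them Krt75, Kb23, Krtap3-1 and Krt34, were named partly for their calls in it, so the count is a description. The ID effect minus the SC effect was 2.02 log2 units for Krt75. It was -7.79 for Krtap8-1, -4.06 for Krtap11-1, -8.45 for Krtap3-1, -2.60 for Krt32, -4.37 for Krt31, -7.91 for Krt34, -4.48 for Krt83 and -8.39 for Kb23. Without SC gel 3 the call for Krt75 held (2.21), and those of the other 8 were lost. The lost calls do not show that the difference went. The median of the site contrast then remained at -2.39 over type I hair keratins, -3.51 over type II and -3.04 over keratin-associated proteins. With gel replicates 4 to 6 alone these medians were -2.24, 0.03 and -0.43.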

How the results depend on the processing

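The counts of members called for ID gel (39 as reported) stayed within 1.5-fold under every setting run, with a range of 38 to 40 when each library was left out, and that for ID saline against SC saline was 0 under each. For SC gel (20) the count was 13 with gel replicates 1 to 3, 38 with gel replicates 4 to 6, and 17 to 38 with 1 library left out. For the site difference (22) it was 3 with limma voom, 2 and 6 with limma on FPKM plus 1 and plus 0.1, 6 with gel replicates 4 to 6 and 4 to 26 with 1 library left out. For ID gel against SC gel (27) it was 4 with voom, 3 with only the groups of the contrast, 2 and 9 with limma on FPKM, 8 with gel replicates 4 to 6, and 7 to 27 with 1 library left out. The shares of all tested genes called in these settings are not given here. Apart from left-out libraries and library subsets, whose own values carry the cause, the cause was not tested. The direction reversed for Krt25 in the site difference with voom (5.03) and in ID gel against SC gel with voom (5.57), with FPKM plus 0.1 (2.86) and without SC gel 3 (2.80, range -1.62 to 2.80 over left-out libraries). It reversed for Krt27 without SC gel 3 in the site difference (2.40, range -3.17 to 2.40) and in ID gel against SC gel (2.83, range -2.73 to 2.83). A reversal was counted only where the main fit or the setting called the gene, and the gel replicate subsets were left out. Without a call, the sign of the site difference also changed for Krt35, Krt71, Krt82 and Krt85. It was 10.3 for Krt25, 5.86 for Krt27 and 7.79 for Krt85 with gel replicates 4 to 6 alone, and -3.05, -3.54 and -2.12 with gel replicates 1 to 3.

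Deviations of same-numbered libraries of different groups had correlations of -0.24 to 0.42, over 0.1 in 1 to 4 of 6 pairs. The 4 of 6 held for ID gel with SC gel (-0.13 to 0.42) and ID saline with SC saline (-0.12 to 0.38). Of the 6 ID gel libraries, 3 correlated best with the SC gel library of their own number. No label pairs the libraries, so the main fit did not take the numbers as pairs, but these values do not exclude pairs. With a replicate block 40 members were called for ID gel, 24 for SC gel, 27 for the site difference, 0 between saline groups and 25 between gel groups. The low-count filter left 9 keratin-associated proteins untested.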
